A study of Mus musculus with 4 samples.

Results

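Genes of blood and lymphatic vessels, 39 in all, were followed in mammary tissue of mice labelled knockout (KO) or wild-type (WT) for STAT5, which carries the prolactin signal to the genome. The list joins endothelial surface, junction and signalling genes, endothelial transcription factors, lymphatic genes, and ligands of the VEGF, angiopoietin and apelin systems. A gene was taken up where the platform annotation gave its symbol alone to a probe set, and the probe set with the highest mean log2 signal over the 4 arrays stood for it. This found 38 of the 39 genes, out of 18193 genes named on the array. The missing gene was Ccl21a, a lymphatic chemokine, since its probe set names 9 genes. Of the 38, 37 were bright enough to be tested.

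The KO group was 2 arrays of mammary tissue labelled STAT5 KO, and the WT group was 2 arrays of the same tissue labelled STAT5 WT. The design text gives 2 mice per genotype and a time of 6 days, with no event from which the days run. The labels name no treatment. Strain, age, the driver of the deletion and the choice between Stat5a and Stat5b are not given in the sources used here, although the series title names STAT5A and luminal progenitors, the cells that form milk-secreting alveoli. Median signals were 121 and 124 on the KO arrays and 131 and 130.5 on the WT arrays. Both Stat5 genes still gave signal, with Stat5a at 1836 and 861 on the KO arrays against 2307 and 2061 on the WT arrays, and Stat5b at 1069 and 712 against 1522 and 1506. Both were lower on each KO array, and neither passed the test (limma adjusted p = 0.246 and 0.102). A second probe set of each gene was also lower on each KO array. Its KO mean was 44.6% of the WT mean for Stat5a and 51.1% for Stat5b, without passing (limma adjusted p = 0.106 and 0.121). A probe set outside the deleted part would not check the genotype.

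Endothelial cells line every vessel. VEGF ligands made by surrounding cells act on the receptor kinases Kdr and Flt1 of blood vessels and on Flt4 of lymphatic vessels, while angiopoietins act on Tek and set how quiescent or how pliable the vessel wall is. In the mammary gland the capillary bed is known to grow around the alveoli during pregnancy and to regress after weaning. ETS factors such as Erg and Fli1 and the SoxF factors Sox7, Sox17 and Sox18 maintain endothelial identity.

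The blood endothelial markers Pecam1, Cdh5, Kdr, Tie1 and Emcn were all tested and gave signals between 637 and 2020 over the 4 arrays. The lymphatic side was thinner. Prox1, the factor that defines lymphatic endothelium, stood at 15.9 and 3.21 on the KO arrays and at 13.1 and 34.1 on the WT arrays. These values lie far below the array medians, so lymphatic identity rests here on Flt4, Pdpn and Reln, which other cells also express. In bulk tissue, fewer vessel cells and less RNA per vessel cell cannot be told apart.

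None of the 37 tested vessel genes passed the threshold of 0.05 on the limma adjusted p, where 2.57% of all 11360 tested genes passed. At an unadjusted p below 0.05 there were 9 higher and 3 lower in KO, or 32.4% of the 37, against 21.3% of all tested genes (10.4% higher and 10.8% lower). The 2 KO arrays lay above both WT arrays for 17 of the 37 genes, or 45.9%, where 26.2% of all tested genes did so. They lay below both for 6 genes, or 16.2%, against 27.5%, so that the genotypes did not overlap for 62.2% of the vessel genes and 53.7% of all tested genes. The median log2 difference of the tested vessel genes was 0.22, and that of all tested genes was -0.0099. These differences are on the scale of log2(signal + 16), which understates the change of dim genes.

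**Figure D1:**
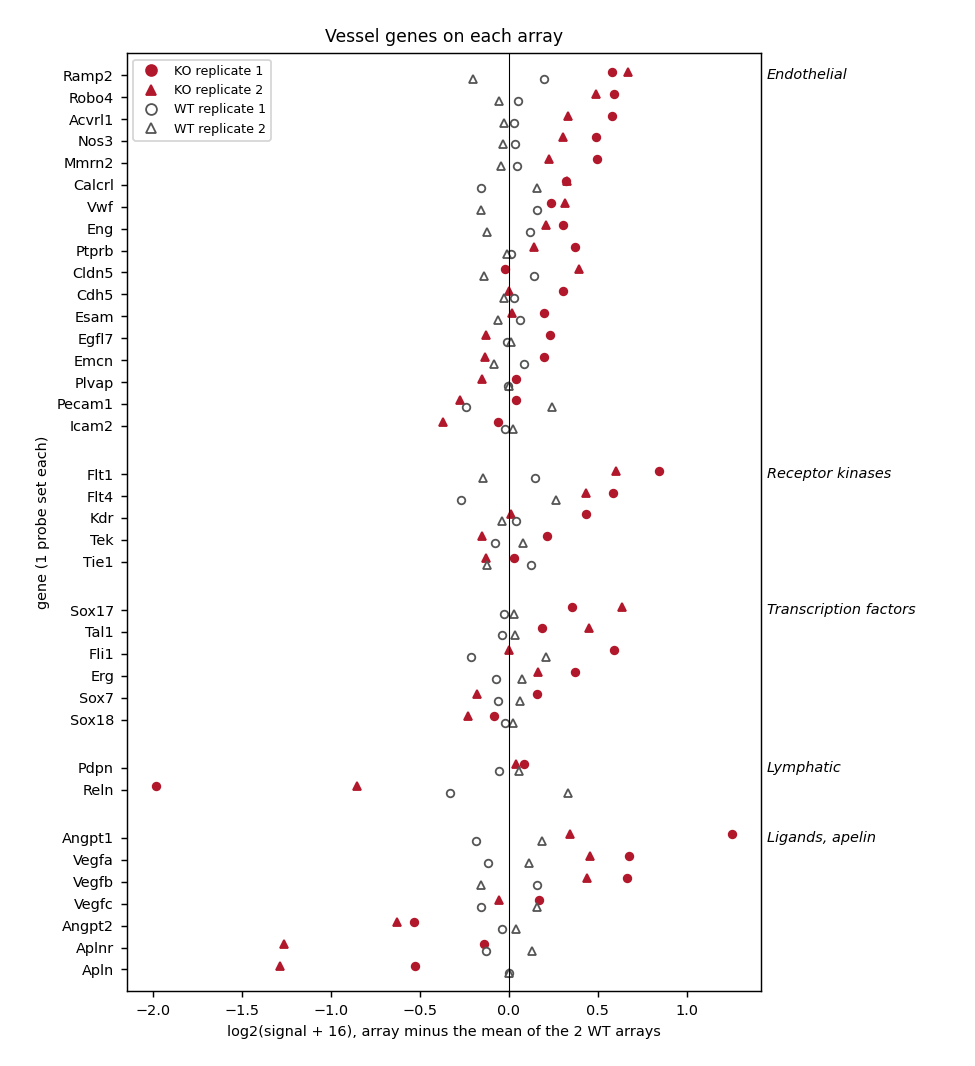
Each row is a vessel gene and each point an array, placed by its log2(signal + 16) minus the mean of both WT arrays. KO arrays are red and WT arrays are open grey symbols. KO replicate 1 lies to the right of KO replicate 2 for 30 of the 37 genes, and the points farthest to the left are those of Reln, Apln and Aplnr on KO arrays.

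Vessel genes differed between the KO arrays themselves. KO replicate 1 lay above KO replicate 2 for 30 of the 37 genes, against 5089 of all 11360 tested genes, whereas WT replicate 1 lay above WT replicate 2 for 17 of the 37. The median absolute difference over the 37 genes was 0.24 between the KO arrays and 0.15 between the WT arrays, and it was 0.28 between the genotype means. Against the WT mean, the median of the vessel genes was 0.24 on KO replicate 1 and 0.038 on KO replicate 2.

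The genes that mark endothelial cells in general had KO means from 86.1% of the WT mean, for Icam2, to 153%, for Ramp2. Of 17 such genes, 9 were higher on both KO arrays, 1 was lower on both and 7 overlapped, with a median log2 difference of 0.26. That is 52.9% higher and 5.88% lower, where all tested genes had 26.2% and 27.5%. Pecam1, the adhesion molecule CD31, stood at 1550 and 1245 on the KO arrays and at 1273 and 1792 on the WT arrays. Cdh5, the cadherin of endothelial junctions, stood at 1570 and 1269 on the KO arrays and at 1293 and 1245 on the WT arrays. In both genes the genotypes overlapped.

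The limma 95% confidence interval of the log2 difference ran from -0.60 to 0.37 for Pecam1 and from -0.22 to 0.52 for Cdh5. Differences within these intervals could not be told from none. Esam and Cldn5, a junctional adhesion molecule and the claudin of endothelial tight junctions, had differences of 0.11 and 0.19. Emcn, a sialomucin of capillaries and veins, and Plvap, the diaphragm protein of fenestrae, had differences of 0.032 and -0.056. Egfl7, a secreted protein of the vessel wall, was at 1286 and 1001 on the KO arrays and at 1087 and 1102 on the WT arrays (0.052). Icam2, an adhesion molecule of resting endothelium, was at 529 and 425 on the KO arrays and at 544 and 563 on the WT arrays, and was lower on both KO arrays (-0.22, limma adjusted p = 0.547).

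Ramp2 and Robo4 had the greatest differences among these 17 genes. Ramp2, which turns the receptor Calcrl into the receptor of adrenomedullin, gave 3373 and 3594 on the KO arrays and 2585 and 1958 on the WT arrays. Its KO mean was 153% of the WT mean, and on the log2 scale KO minus WT was 0.63 (SE 0.16, limma adjusted p = 0.101). Calcrl itself stood at 591 and 594 on the KO arrays and at 420 and 526 on the WT arrays (0.32, adjusted p = 0.356). A second, dimmer probe set of Calcrl, below the limit for testing, ran the other way at -0.65.

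Robo4, a receptor of stable endothelium, gave 1166 and 1086 on the KO arrays and 797 and 740 on the WT arrays. The 2 genotypes were well apart, with a difference of 0.54 (SE 0.14, limma adjusted p = 0.102). Acvrl1, the BMP receptor ALK1, stood at 655 and 548 on the KO arrays and at 442 and 424 on the WT arrays (0.45, adjusted p = 0.199). Nos3, the endothelial nitric oxide synthase, stood at 2508 and 2203 on the KO arrays and at 1826 and 1743 on the WT arrays (0.39, adjusted p = 0.177). In each of these genes both KO arrays were higher than both WT arrays, without passing the threshold. A second tested probe set of Acvrl1 overlapped, at 260 and 356 on the KO arrays and at 244 and 268 on the WT arrays (0.24).

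Mmrn2, a matrix protein that binds CD93, had 4 probe sets with differences between 0.36 and 0.44, and in 3 of them the genotypes did not overlap. Eng, a co-receptor of BMP ligands, and Vwf, the clotting factor stored in endothelium, were higher on both KO arrays, with differences of 0.26 and 0.28. Ptprb, the phosphatase that restrains Tek, had 0.26 for its representative and 0.040 for a second tested probe set, in which the genotypes overlapped.

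Among the receptor tyrosine kinases, Flt1 had the smallest p of all 37 genes. Flt1 is a VEGF receptor that binds its ligands tightly, and its soluble form withholds them from Kdr. It gave 889 and 751 on the KO arrays and 542 and 439 on the WT arrays, with a KO mean at 167% of the WT mean. The difference was 0.73 (SE 0.18, limma adjusted p = 0.0896). All 4 Flt1 probe sets were higher on both KO arrays, with the other 3 at 0.53, 0.53 and 0.31. Array values alone do not separate the soluble and membrane forms here.

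Kdr, the main signalling receptor of VEGF-A, stood at 2020 and 1503 on the KO arrays and at 1534 and 1452 on the WT arrays. KO replicate 2 lay within the range of the WT arrays, and the difference was 0.22 (limma adjusted p = 0.539). Flt4 stood at 377 and 337 on the KO arrays and at 202 and 299 on the WT arrays (0.51, adjusted p = 0.275). Tek, the angiopoietin receptor, and Tie1, its partner, overlapped between genotypes, with differences of 0.031 and -0.051.

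**Figure D2:**
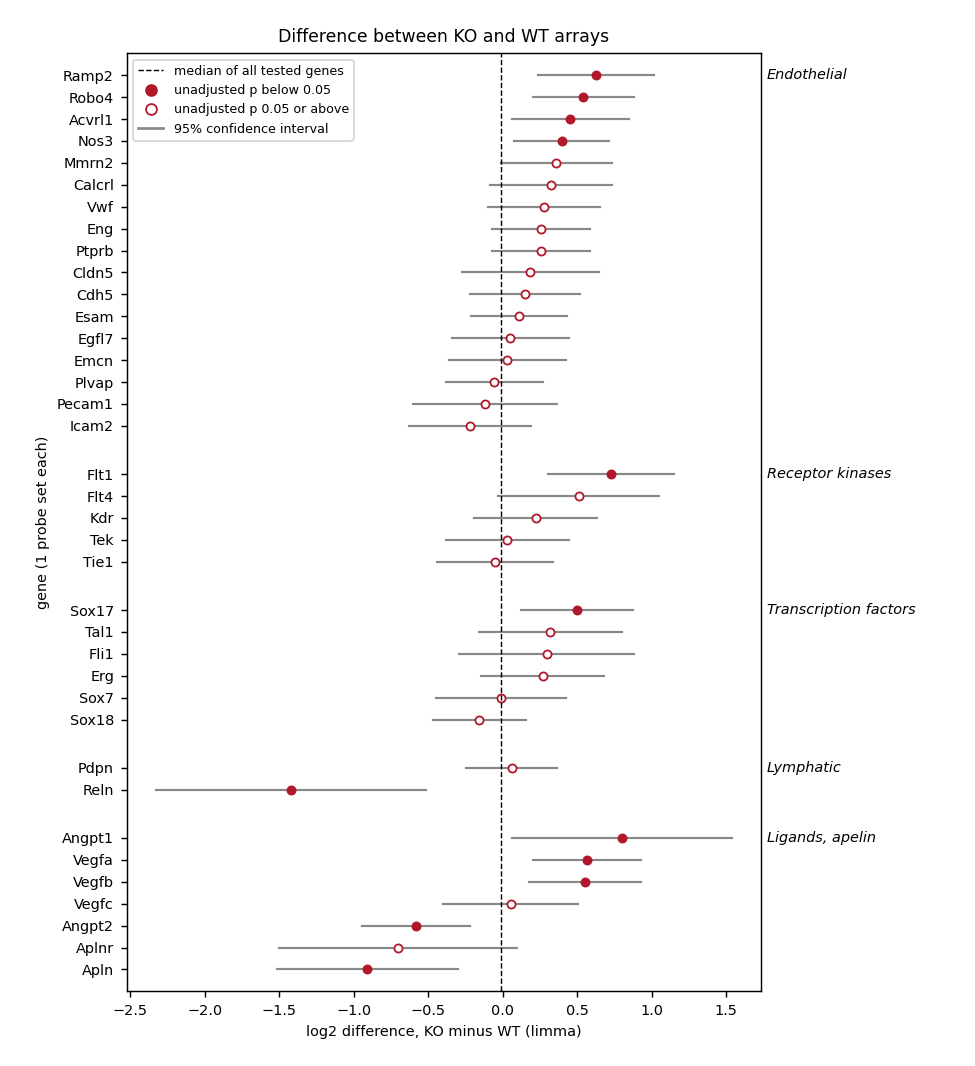
Points are limma log2 differences, KO minus WT, with 95% confidence intervals as grey lines, and the dashed line is the median of all tested genes at -0.0099. Filled points had an unadjusted p below 0.05 and number 12. Flt1, Angpt1, Ramp2 and the VEGF genes Vegfa and Vegfb lie to the right, and Reln, Apln and Angpt2 to the left.

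None of the 6 transcription factors passed, with 3 higher, 1 lower and 2 overlapping, and a median difference of 0.28. That is 50% higher and 16.7% lower, beside 26.2% and 27.5% of all tested genes. Sox17, the SoxF factor of arteries, gave 996 and 1215 on the KO arrays and 760 and 791 on the WT arrays. Its difference was 0.50 (SE 0.16, limma adjusted p = 0.152), and its second probe set gave 0.52. Sox18 stood at 2017 and 1824 on the KO arrays and at 2104 and 2174 on the WT arrays (-0.16), and Sox7 overlapped (-0.011). Whether Sox17 differs from its relatives was not tested.

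The ETS factor Erg stood at 450 and 387 on the KO arrays and at 326 and 363 on the WT arrays (0.27, limma adjusted p = 0.451). Fli1, another ETS factor, which blood cells also express, overlapped between genotypes (0.30). Tal1, a factor of blood and endothelial progenitors, stood at 197 and 240 on the KO arrays and at 166 and 176 on the WT arrays (0.32, adjusted p = 0.439).

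Promoters of 21 of the 39 genes were found in the RefSeq promoter table (GRCm38.p6), and 250 bases before each start were searched on both strands. The string TTCNNNGAA, the consensus read by STAT proteins, occurred in 0 of their 28 promoters and in 7.02% of all 32851 promoters. The string CAGGAAG, which contains the ETS core GGAA, occurred in 7 of the 28, in Apln, Calcrl, Egfl7, Emcn, Erg and Robo4, and in 10.82% of all promoters. The string ACGTG, the core of the hypoxia response element, occurred in Pdpn, Reln and Vegfa, and in 16.57% of all promoters. A match is a description of the letters and not a site, and the strings were chosen with the values known. The windows of Robo4, Apln and Egfl7 are shown because these genes share the ETS string while Robo4 was higher, Apln lower and Egfl7 overlapping in KO. Each window holds 110 bases, from 130 to 21 bases before the start, written 5′ to 3′ on the strand of the gene, with the string or its reverse complement in capitals.
Robo4, chr9:37401842-37401951, plus strand: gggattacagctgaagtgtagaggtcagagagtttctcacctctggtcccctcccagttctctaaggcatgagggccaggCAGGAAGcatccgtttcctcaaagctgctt
Apln, chrX:48034874-48034983, minus strand: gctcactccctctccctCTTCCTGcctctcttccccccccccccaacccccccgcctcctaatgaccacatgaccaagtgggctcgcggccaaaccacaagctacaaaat
Egfl7, chr2:26580953-26581062, plus strand: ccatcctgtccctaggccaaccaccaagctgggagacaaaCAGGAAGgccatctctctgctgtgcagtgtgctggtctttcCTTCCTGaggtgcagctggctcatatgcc

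Ligands and apelin genes spread widely in both directions. Of 7, 3 were higher and 3 lower on both KO arrays, and only Vegfc overlapped. That is 42.9% each way, beside 26.2% higher and 27.5% lower among all tested genes. Vegfa, the ligand of Flt1 and Kdr, gave 2429 and 2082 on the KO arrays and 1397 and 1641 on the WT arrays. Its difference was 0.57 (SE 0.15, limma adjusted p = 0.108). A second Vegfa probe set, at 1036 and 922 on the KO arrays and 940 and 817 on the WT arrays, overlapped and gave 0.15, so the size rests on the probe set chosen.

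Vegfb, whose receptor kinase is Flt1, gave 4282 and 3654 on the KO arrays and 3004 and 2411 on the WT arrays. The genotypes were apart, with a difference of 0.55 (SE 0.16, limma adjusted p = 0.123). Vegfc, the ligand of Flt4, stood at 430 and 366 on the KO arrays and at 340 and 427 on the WT arrays (0.055), and its 3 probe sets lay between -0.054 and 0.055. Signals of 12 skeletal muscle markers summed to 13171 and 7346 on the KO arrays and to 3565 and 1659 on the WT arrays. Of these markers 10 were tested and 5 rose (limma), where 1.21% of all tested genes rose. On both KO arrays 9 of the 10 were higher and 0 lower, or 90% and 0%, beside 26.2% and 27.5% of all tested genes. Among them Myh4, Tnnc2, Myh1 and Pvalb entered the test through the KO arrays alone. Muscle also expresses VEGF genes. The part of muscle in the Vegfa and Vegfb values was not tested.

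The angiopoietins lay on opposite sides of their WT levels. Angpt2, which loosens vessels and is made by endothelial cells at growing fronts, gave 447 and 417 on the KO arrays and 637 and 674 on the WT arrays. Its difference was -0.58 (SE 0.15, limma adjusted p = 0.102), and the arrays within each genotype lay close together. Angpt1, which stabilises vessels and comes from cells around them, gave 750 and 392 on the KO arrays and 266 and 350 on the WT arrays. KO replicate 1 carried most of its difference of 0.80 (SE 0.31, adjusted p = 0.224). Without KO replicate 2 the difference of Angpt1 was 1.25, and without KO replicate 1 it was 0.34.

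Apln, a peptide made by endothelial cells at sprouting tips, gave 545 and 315 on the KO arrays and 793 and 792 on the WT arrays. Both KO arrays were lower, the KO mean was 54.3% of the WT mean, and the difference was -0.91 (SE 0.25, limma adjusted p = 0.117). Aplnr, the apelin receptor of veins and other cells, gave 3668 and 1671 on the KO arrays and 3692 and 4429 on the WT arrays. KO replicate 1 was barely below WT replicate 1, so the difference of -0.70 (adjusted p = 0.308) came from KO replicate 2. A second Aplnr probe set overlapped, at 603 and 400 on the KO arrays and at 598 and 743 on the WT arrays (-0.43). Without KO replicate 1 the difference was -1.29 for Apln and -1.27 for Aplnr. Without KO replicate 2 the differences were -0.53 and -0.14, so the size rests on which KO array is kept.

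Of the lymphatic genes, Reln had the widest difference of all 37 genes. Reln, the secreted glycoprotein reelin, which lymphatic endothelium and other cells release, gave 434 and 971 on the KO arrays and 1403 and 2232 on the WT arrays. The arrays did not overlap, but they spread within each genotype, and the difference was -1.42 (SE 0.38, limma adjusted p = 0.107). Without KO replicate 2 the difference was -1.99, and without KO replicate 1 it was -0.86. Of 8 basal and myoepithelial markers 1 fell past the threshold, and all differences lay between -0.91 and -0.19, with a median of -0.43. On both KO arrays 4 were lower and 0 higher, and 4 overlapped between genotypes. That is 50% lower and 0% higher, beside 27.5% and 26.2% of all tested genes. Signals of these markers summed to 16662 and 24740 on the KO arrays and to 24346 and 28082 on the WT arrays, which overlap. Their part in the Reln values was not tested. Pdpn, podoplanin, which myoepithelium and fibroblasts also carry, was at 2121 and 2056 on the KO arrays and at 1924 and 2083 on the WT arrays (0.060, 95% confidence interval -0.24 to 0.37).

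**Figure D3:**
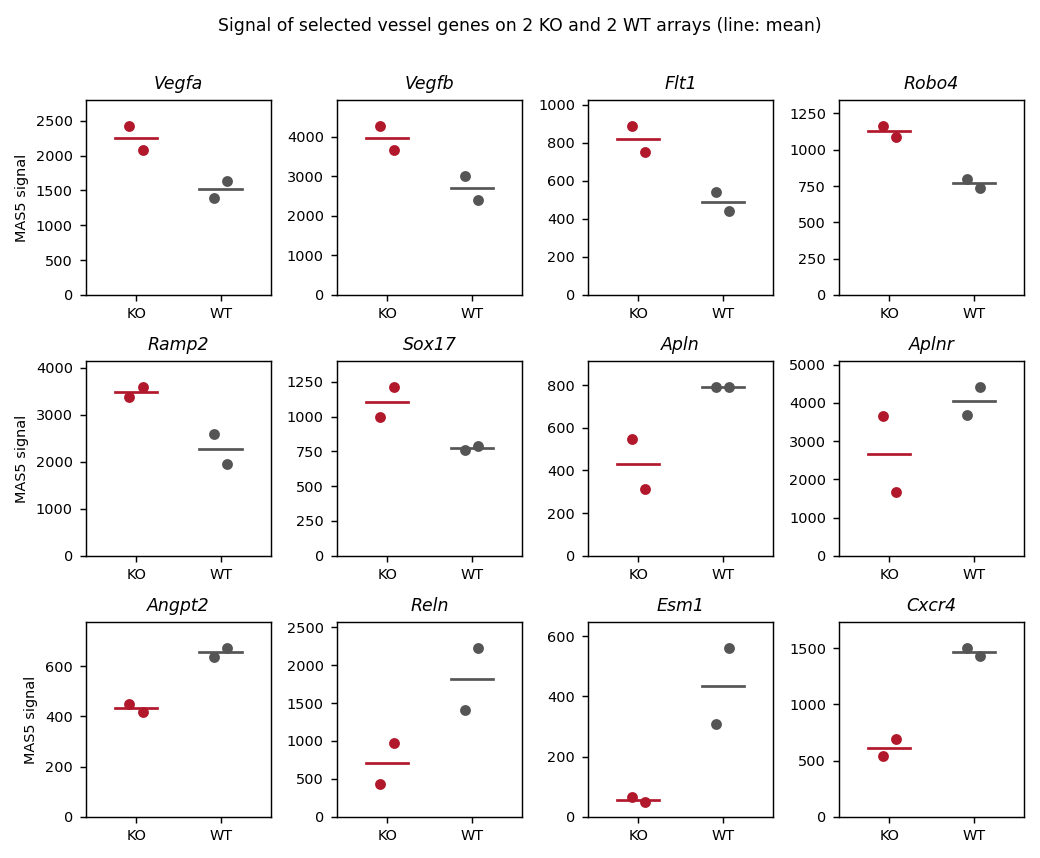
MAS5 signal on the linear scale for 12 genes, with KO arrays on the left and WT arrays on the right of each panel. Each point is an array and each line the mean of 2 arrays. Vegfa, Vegfb, Flt1, Robo4, Ramp2 and Sox17 are higher on both KO arrays, and Apln, Aplnr, Angpt2, Reln, Esm1 and Cxcr4 are lower on both.

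Several other genes of the VEGF pathway passed the threshold. Of 17 tested outside the 39, 1 rose, 3 fell and 13 did not pass, with a median of 0.14, where 1.21% of all tested genes rose and 1.36% fell. Esm1, endocan, a proteoglycan that VEGF induces in endothelial tip cells, fell to 66.3 and 47.4 on the KO arrays, against 307 and 562 on the WT arrays. The KO mean was 13.1% of the WT mean, a difference of -2.58 (SE 0.32, limma adjusted p = 0.0236). Both KO signals lie below the limit for testing, a signal of 126, so Esm1 entered the test through its WT arrays alone and the size of its difference is imprecise. With no filter on dim probe sets its call was lost (adjusted p = 0.0959).

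Cxcr4, a chemokine receptor of sprouting endothelium and of leukocytes, fell to 536 and 691 on the KO arrays, against 1505 and 1433 on the WT arrays (-1.25, limma adjusted p = 0.0308). Ptprc, the leukocyte marker CD45, stood at 1151 and 1072 on the KO arrays and at 1790 and 1904 on the WT arrays (-0.73, adjusted p = 0.0507), and was picked out after its values were seen. The 8 tested markers of macrophages and leukocytes had no common direction, with 2 higher and 1 lower at an unadjusted p below 0.05 (limma). That is 37.5%, beside 21.3% of all tested genes. Cd68 and Cd14 stood at 0.56 and 0.80. The part of leukocytes in the Cxcr4 values was not tested. Cxcr4 missed the threshold with WT replicate 1 left out (limma adjusted p = 0.0837) or WT replicate 2 left out (adjusted p = 0.133), with no filter on dim probe sets (adjusted p = 0.0905), and with arrays centred on epithelial markers (adjusted p = 0.372).

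The thrombospondins, secreted inhibitors of vessel growth, split. Thbs1 fell to 864 and 1296 on the KO arrays, against 2442 and 2747 on the WT arrays (-1.28, limma adjusted p = 0.0401). Thbs2 rose to 1811 and 2403 on the KO arrays, against 1006 and 1081 on the WT arrays (0.99, adjusted p = 0.0455). Each further probe set ran the same way, at -1.03 for Thbs1 and at 0.81 and 0.91 for Thbs2. Neither passed when 1 WT array was left out (limma adjusted p from 0.0903 to 0.189). They passed in 8 and 6 of the 14 other settings.

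Outside the 39 genes, 28 further endothelial genes were measured. None passed (limma), 9 were higher and 0 lower at an unadjusted p below 0.05, 16 were higher and 0 lower on both KO arrays, and the median was 0.29. Among all tested genes 10.4% were higher and 10.8% lower at that p, and 26.2% were higher and 27.5% lower on both KO arrays. Ednrb, an endothelin receptor, had 0.97 (adjusted p = 0.0851) and Procr, the protein C receptor, 0.72 (adjusted p = 0.0792). Among 13 arterial, venous and Notch genes none passed, with 6 higher and 1 lower at an unadjusted p below 0.05. Efnb2, the ephrin of arteries and sprouts, was at 388 and 327 on the KO arrays and at 674 and 656 on the WT arrays (-0.87, adjusted p = 0.0535). Gja4, a connexin of arteries, was at 592 and 506 on the KO arrays and at 359 and 347 on the WT arrays (0.61, adjusted p = 0.109).

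Among 8 tested lymphatic genes outside the 39, Lyve1 rose and 7 did not pass, with a median of 0.54. On both KO arrays 6 were higher and 0 lower, or 75% and 0%, beside 26.2% and 27.5% of all tested genes. At an unadjusted p below 0.05 (limma) 4 were higher and 0 lower, where all tested genes had 10.4% and 10.8%. Lyve1, a hyaluronan receptor of lymphatic endothelium and of some macrophages, gave 2410 and 2370 on the KO arrays, against 1168 and 760 on the WT arrays. Its difference was 1.33 (limma adjusted p = 0.0378), and its second probe set gave 1.21. It missed the threshold without WT replicate 2 (1.02, limma adjusted p = 0.116), with no filter (adjusted p = 0.112) and with no variance trend (adjusted p = 0.0610). The macrophage and leukocyte markers had a median of 0.063, but single markers ran from -1.21 to 0.80. Signals of these markers summed to 24232 and 23781 on the KO arrays and to 23589 and 23884 on the WT arrays. A sum over markers that move both ways does not give the share of macrophages. The part of these cells in the Lyve1 values was not tested. Lyve1 and Reln thus lay on opposite sides of their WT levels while Pdpn overlapped.

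Genes that respond to low oxygen showed no common direction. Of 12 tested none passed (limma), 2 were higher and 1 lower at an unadjusted p below 0.05, and the median was 0.037. That is 25% at this p, beside 21.3% of all tested genes. Adm, adrenomedullin, the ligand of the Calcrl and Ramp2 receptor, gave 759 and 486 on the KO arrays and 293 and 314 on the WT arrays (0.96, adjusted p = 0.0853). Hk2, a hexokinase, had -0.89 (adjusted p = 0.191).

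**Figure D4:**
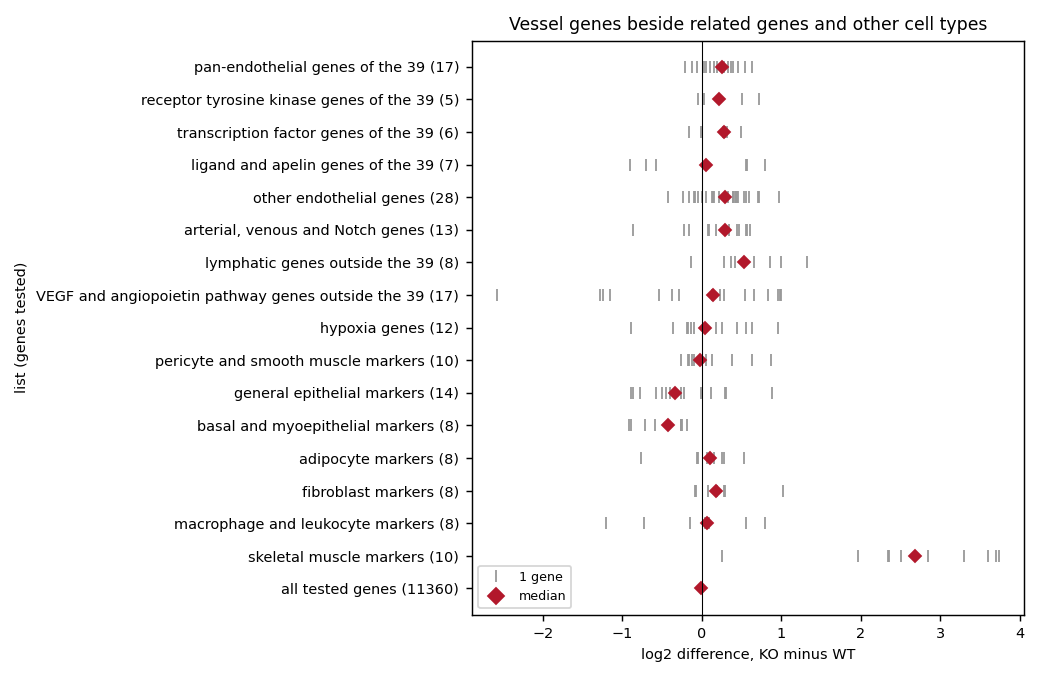
Each tick is a tested gene of a list and each diamond the list's median log2 difference, KO minus WT, with the number of genes tested in brackets. Endothelial lists have medians between 0.22 and 0.29, beside -0.0099 for all tested genes, -0.33 for general epithelial markers and 2.68 for skeletal muscle markers. The muscle markers Myh4, Tnnc2, Myh1 and Pvalb have WT signals below the limit for testing and entered the test through the KO arrays alone.

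Cells that surround vessels were measured beside them. Of 10 pericyte and smooth muscle markers none passed (limma), 2 were higher and 0 lower at an unadjusted p below 0.05, and the median was -0.025. That is 20% at this p, beside 21.3% of all tested genes. Abcc9 and Kcnj8, the subunits of a potassium channel of pericytes, had differences of 0.87 (adjusted p = 0.0606) and 0.64 (adjusted p = 0.138). General epithelial markers had a median of -0.33 over 14 genes, with sums of 31208 and 49120 on the KO arrays and 44398 and 45688 on the WT arrays. The KO array with the lower epithelial sum, replicate 1, was the one with the higher vessel genes. Within that list Cldn7 had -0.90 (adjusted p = 0.120) and Cldn4 0.88 (adjusted p = 0.0546). The part of these cell types in the vessel values was not tested.

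Markers of the remaining cell types were read in the same way. Among 8 basal markers Oxtr, the oxytocin receptor, fell (-0.89, limma adjusted p = 0.0425), and among 8 fibroblast markers, with a median of 0.18, Fbln1, fibulin 1, rose (1.02, adjusted p = 0.0298). Oxtr passed in 7 and Fbln1 in 8 of the 14 other settings, and neither passed with a WT array left out (limma adjusted p of 0.139 and 0.153 for Oxtr, and of 0.0794 and 0.102 for Fbln1). Of the muscle genes that rose, Myh4, Tnnc2, Myh1 and Pvalb had the smallest p, at 3.30, 2.85, 2.51 and 2.34. Their WT signals all lie below the limit of 126, so these genes entered the test through the KO arrays alone. Their calls were lost with no filter (limma adjusted p from 0.0682 to 0.134) and without WT replicate 2 (adjusted p from 0.0538 to 0.189). None of 8 adipocyte markers passed, with a median of 0.11, Lep at -0.76 and Plin4 at 0.53. None of 8 macrophage and leukocyte markers passed, with Cd3e at -1.21 and Cd14 at 0.80. None of 3 platelet markers passed, with Pf4 at 0.70 and Itga2b at -0.12, and the red cell marker Alas2 overlapped (0.43). At an unadjusted p below 0.05 (limma), 1 of 8 adipocyte markers was higher (12.5%), and 2 of 8 leukocyte markers were higher and 1 lower (37.5%). At that p 1 of 3 platelet markers was higher (33.3%), and the red cell marker did not reach it, beside 21.3% of all tested genes.

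Each array was also centred on the mean of the 17 general endothelial genes, a setting chosen after seeing the data. It lowers every difference by the same amount, so that genes already lower in KO pass more easily, and the median of all tested genes moved to -0.22. In that setting 3 of the 37 genes passed, all lower in KO, where 7.7% of all tested genes passed and 6.27% were lower. They were Apln at -1.12 (limma adjusted p = 0.0170), Angpt2 at -0.80 (adjusted p = 0.0380) and Reln at -1.64 (adjusted p = 0.0193). The 17 genes used for centring are among the 37 and cannot move as a group. The share of the 37 that passed therefore cannot be compared with that of all tested genes.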

How the data were processed

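The deposited intensities, linear MAS5 signals by the submitters' processing notes, cover 45101 probe sets on 4 arrays. Version, settings and genome build are not given in the sources used here. The mean signal, trimmed by 2% at each end, was 498 on every array. Detection calls were not used. The number of arrays limits precision.

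Controls (64 probe sets) were left out. Signals were taken as log2(signal + 16). Probe sets with a mean log2 of at least 7.15 (a signal of 126), the median, were tested: 22519 probe sets, 11360 genes. KO and WT were compared with limma 3.58.1 in R 4.3.3 (lmFit, eBayes with a variance trend). The p-values were adjusted by Benjamini-Hochberg across the tested probe sets. The fit was also run on simulated data with the same spread for every probe set. Such a simulation cannot check the variance trend or the share of false calls in these arrays. With 2 arrays a genotype, the smallest p of an exact permutation test is 0.333. Replicates were numbered by order of deposit. The p-values describe the spread among these arrays alone, which may be partly technical.

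The 39 genes, the other lists and the strings were chosen with earlier results of these data known. All 39 are named. Of each other list, up to 4 genes past 0.05 with the smallest p are named, or, where none passed, the 2 with the widest difference. Ptprc and Cd68 are named outside this rule. Alternatives covered pseudocounts of 1 and 64, normalization, centring, filters, probe set choice, the trend and each array left out.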

Additional observations from a re-analysis of the deposited data

How the results depend on the processing

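No paired analysis was possible because the replicate numbers come from the order of deposit. With an array left out, the lone array of a genotype is assumed to vary like the others. The number of vessel genes past the threshold was 0 in 11 of the 14 other settings; it ran from 0 to 2 with an array left out and was 3 centred on endothelial genes, a setting chosen after seeing the data. Their median log2 difference, 0.22, ran from 0.038 to 0.24 with an array left out, and was 0.46 centred on epithelial markers and 0.0077 centred on endothelial genes. Over all genes 292 passed, against 187 centred on epithelial markers, 27 with no filter, 127 under the 75th percentile filter, 126 averaging all probe sets, 137 with no trend, 875 centred on endothelial genes, and 44 to 599 with an array left out. The share of these that was higher in KO was 47.3%, but 61.7% after median centring, 63.6% centred on epithelial markers, 18.6% centred on endothelial genes and between 35.2% and 68.2% when 1 array was dropped.

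The sign held in every setting where the gene was tested for 21 of the 37 genes, and the other 16 changed sign in at least 1. Sox7 was 0.042 after quantile normalization and 0.071 after median centring, which also put Plvap at 0.026 and Tie1 at 0.030. Centring on epithelial markers put Pecam1 at 0.12, Plvap at 0.19, Icam2 at 0.025, Tie1 at 0.19, Sox18 at 0.086, Sox7 at 0.23 and Itga2b at 0.12. Averaging all probe sets put Egfl7 at -0.0094, Ptprb at -0.11 and Calcrl at -0.16. Centring on endothelial genes put Cdh5 at -0.062, Emcn at -0.18, Esam at -0.11, Cldn5 at -0.028, Egfl7 at -0.16, Tek at -0.18, Pdpn at -0.15 and Vegfc at -0.16. With an array left out, Pecam1 ran from -0.36 to 0.13, Emcn from -0.13 to 0.20, Cldn5 from -0.021 to 0.39, Egfl7 from -0.13 to 0.23, Plvap from -0.15 to 0.040, Tek from -0.15 to 0.21, Tie1 from -0.17 to 0.072, Sox7 from -0.18 to 0.16, Vegfc from -0.10 to 0.21, Lep from -1.95 to 0.43 and Cd3e from -2.74 to 0.32. The cause was not tested. The share of probe sets well above background is unknown here, since detection calls were not used, and differences of dim genes such as Esm1 in KO are the least precise.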
